A study of Mus musculus with 7 samples.

Results

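The genes described here encode small heat-shock proteins (Hspb1, Hspb2, Hspb6, Hspb8 and Cryab), BAG co-chaperones (Bag1, Bag2 and Bag3) and heat-shock factors (Hsf1 and Hsf2). They were taken as every probe set, the group of short probes that reports 1 transcript on the array, whose single gene symbol in the platform annotation was one of these 10 names. The rule found 15 of 45037 non-control probe sets, covering 9 of the 10 genes. Hsf1 is not analysed here. Whole-lung RNA of 3 mice with Gata5 deleted (KO) and 4 wild-type mice (WT) was compared, all at 8 weeks of age, with 1 left lung and 1 Affymetrix mouse array per mouse. Gata5 encodes a zinc-finger transcription factor. The sources used here do not name the strain, sex, zygosity or the part of the gene removed, and the labels list no treatment for either group. Values are deposited log2 levels, so a difference of 1 is a 2-fold change.

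Small heat-shock proteins share an alpha-crystallin domain and hold unfolding proteins in a state from which the Hsp70 machinery can refold them. Many of them, though not all, assemble into large oligomers. BAG proteins bind the ATPase domain of Hsp70 through their BAG domain and speed the release of its nucleotide, and BAG3 also joins HSPB8 to Hsp70 in a complex that passes damaged proteins to autophagy. Heat-shock factor 1 turns on many chaperone genes, among them Hspb1, Cryab and Bag3, by binding inverted repeats of the letters GAA, the heat-shock element. In muscle of vessels, airways and heart, HSPB6 and CRYAB are abundant, and phosphorylated HSPB6 is linked to relaxation of smooth muscle.

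The promoters are shown because Bag3, Hspb8 and Hspb1 had the most negative changes among the genes of this family, and heat-shock elements are the known route of heat-shock factor to such genes. RefSeq sequences of the mouse assembly GRCm38.p6 were matched by symbol for 7 genes in 8 windows, and the 250 bases before the annotated start are printed 5′ to 3′ on the gene's strand, with 2-unit elements (GAANNTTC or TTCNNGAA, both the same on either strand) in capitals. The windows are chr5:135887669-135887918 on the plus strand for Hspb1, chr5:116422865-116423114 on the minus strand for Hspb8 and chr7:128523333-128523582 on the plus strand for Bag3.
Hspb1: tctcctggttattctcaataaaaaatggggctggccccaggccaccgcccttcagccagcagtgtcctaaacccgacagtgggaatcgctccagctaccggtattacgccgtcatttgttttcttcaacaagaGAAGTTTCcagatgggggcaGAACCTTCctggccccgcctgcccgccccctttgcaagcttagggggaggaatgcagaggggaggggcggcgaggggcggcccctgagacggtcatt
Hspb8: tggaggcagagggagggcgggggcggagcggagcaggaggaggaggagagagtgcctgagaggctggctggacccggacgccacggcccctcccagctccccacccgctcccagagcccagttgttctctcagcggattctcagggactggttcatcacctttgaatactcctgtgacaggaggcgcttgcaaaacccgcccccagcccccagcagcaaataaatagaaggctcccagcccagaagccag
Bag3: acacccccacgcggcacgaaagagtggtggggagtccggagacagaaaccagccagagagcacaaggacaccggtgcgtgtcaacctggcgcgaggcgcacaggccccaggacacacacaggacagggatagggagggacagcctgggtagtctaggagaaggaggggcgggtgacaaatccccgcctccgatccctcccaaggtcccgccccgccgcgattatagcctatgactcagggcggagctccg
The Hspb1 window held GAAGTTTC from 117 to 110 bases before the start and GAACCTTC from 97 to 90 bases before it. The windows of Hspb8 and Bag3 held neither 2-unit form. For Hspb6 the second of its windows, which starts inside the annotated gene, held the same GAAGTTTC from 120 to 113 bases before that start, shown with its surroundings at chr7:30553170-30553199 on the plus strand.
Hspb6: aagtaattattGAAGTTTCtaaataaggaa
At least 1 of the 2-unit forms lay in 12.8% of all 32851 windows of this length, or in 14.5% of all 27025 genes. It lay in 2 of the 7 genes, Hspb1 and Hspb6, and in 8 of 16 chaperone genes known as HSF1 targets. In a 3-unit form 1 more unit follows at the same spacing, so that both 2-unit forms overlap in it. It lay in 0.466% of windows (0.514% of genes), in none of the 7 genes and in 2 of the 16 targets. The GATA-factor motif is GATA with A or T before it and A or G after it, searched on both strands. It lay in 26.5% of windows (29.7% of genes), in 2 of the 16 targets and in 1 of the 7 genes, in the first window of Hspb6. A match describes these letters and is not a bound site.

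The arrays differed in more than genotype. Median log2 levels per array lay between 6.10 and 6.15, no pair of arrays held identical values, and 7 of 8 lung epithelial markers were above the level filter. WT replicate 4 stood apart at Xist, which coats the inactive X chromosome of females, at 12.72 against 6.31 to 6.48 on the others. The beta-actin 3′ control exceeded the 5′ control by 4.74 to 5.39 on KO arrays and 3.88 to 4.31 on WT arrays, the middle control by 2.84 to 3.34 and 2.23 to 2.56, and Gapdh 3′ exceeded its middle control by 3.85 to 4.31 and 3.33 to 3.68 (exact two-sided permutation p = 0.0286 for each, the smallest that 35 splits can give). Gapdh 3′ minus 5′ was 6.36 to 6.51 on KO and 6.36 to 6.6 on WT arrays, with overlapping groups (exact two-sided permutation p = 0.686). Such gaps are a usual check of RNA integrity and labelling, and all but the last were larger on every KO array than on any WT array. Their part in the changes below cannot be told well from genotype. Gata5 itself was dim, at 4.95 in KO and 5.54 in WT at probe set 1450126_at (limma adjusted p = 0.0336 over all probe sets), and whether that probe set lies in the deleted part is not known here.

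Bag3 and Hspb8 fell in KO lungs, and no gene of the family rose. These were 2 of 8 genes tested, where a gene was represented by its brightest probe set and tested if its mean log2 level was at least 5.47. Over all 13285 genes tested, 10% passed as lower and 5.56% as higher (limma, Benjamini-Hochberg adjusted p under 0.05), and the share among so few genes was not tested against that. The 3 KO arrays lay apart from the 4 WT arrays for the same 2 of 8 genes, against 29.6% of all tested genes. The median log2 change of the 8 genes was -0.16 and that of all tested genes -0.0033. Hsf2 was under the level filter and was examined at probe set level alone. In whole lung, fewer cells of a type and less RNA per cell cannot be told apart.

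**Figure D1:**
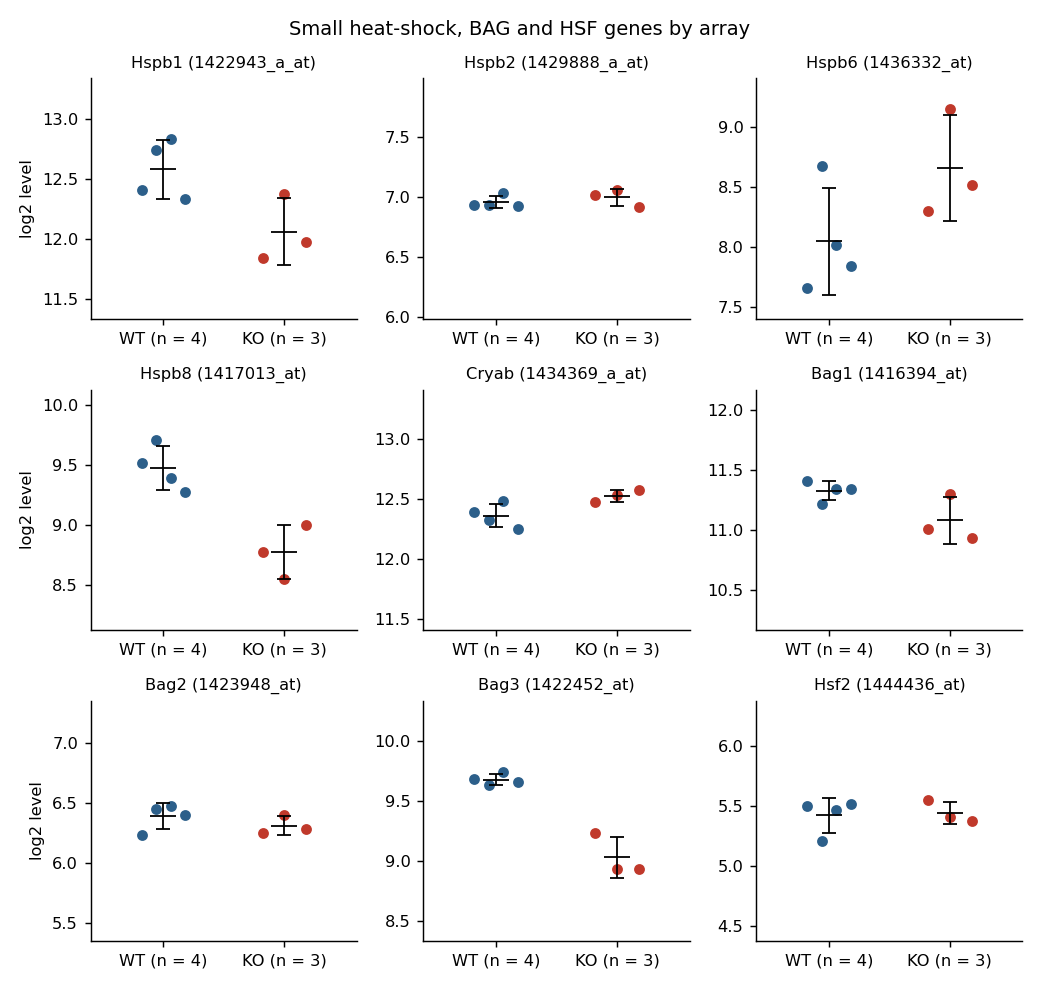
Log2 level on each array (points), with mean and SD (bars), for the brightest probe set of 9 genes in 4 WT and 3 KO lungs; each panel spans 2 log2 units. The KO and WT arrays are apart for Bag3 and Hspb8 and overlap for the other 7 genes.

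Bag3, the BAG protein that joins Hsp70 to HSPB8, was at 9.23, 8.93 and 8.93 on the KO arrays and at 9.68, 9.63, 9.74 and 9.66 on the WT arrays. No KO array reached the lowest WT array, and the WT arrays lay close together. The means were 9.03 ± 0.17 (SD, n = 3) and 9.68 ± 0.05 (SD, n = 4), a log2 change of -0.65 with a 95% interval of -0.84 to -0.45, or 1.57-fold lower in KO (limma adjusted p = 0.00648). The call was kept whichever array was left out (adjusted p between 0.00718 and 0.0232). With a control difference as covariate it was lost: the log2 change was -0.56 with beta-actin 3′ minus 5′ (adjusted p = 0.229), -0.49 with beta-actin 3′ minus middle (0.299) and -0.57 with the Gapdh difference (0.142). Each of these differences sets all KO arrays apart from all WT arrays, so a fit with it cannot tell it well from genotype. Over all tested genes these fits called 0, 0 and 5, so a call lost in them, here or below, decides nothing about a gene. In the 5 mice with the lowest mouse numbers no gene was called, so Bag3, and Hspb8 below, lost their calls there too.

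The other BAG genes did not pass. Bag1, a nucleotide exchange factor of Hsp70 that also binds BCL2, was at 11.01, 11.30 and 10.93 in KO and at 11.41, 11.22, 11.34 and 11.34 in WT. KO replicates 1 and 3 lay below every WT array, while KO replicate 2 lay within their range. The log2 change was -0.25 with a 95% interval of -0.46 to -0.03 (limma adjusted p = 0.108), and -0.36 without KO replicate 2, where it passed (adjusted p = 0.0265). Bag2, which inhibits the ubiquitin ligase CHIP, differed by -0.08 with an interval of -0.25 to 0.10 (limma adjusted p = 0.486), and its arrays overlapped.

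Among the small heat-shock genes, Hspb8, the partner of BAG3, fell at its brightest probe set, 1417013_at. Its levels were 8.78, 8.55 and 9.0 on KO arrays against 9.52, 9.71, 9.39 and 9.28 on WT arrays. The highest KO array was below the lowest WT array. The means of 8.78 ± 0.225 (SD, n = 3) and 9.475 ± 0.185 (SD, n = 4) gave a log2 change of -0.70 with a 95% interval of -0.99 to -0.40, 1.62-fold lower in KO (limma adjusted p = 0.0127), and the call was kept whichever array was left out (adjusted p up to 0.0377). The other probe sets of Hspb8 showed less: 1456434_x_at, whose suffix marks probes that can match other sequences, had a log2 change of -0.12 with an interval of -0.27 to 0.04, and 1417014_at one of 0.03 with an interval of -0.12 to 0.18 (limma adjusted p = 0.282 and 0.767 over all probe sets), the last with a negative sign under quantile normalization (-0.01) and cyclic loess (-0.03). With the mean of all 3 probe sets the change of the gene was -0.26 (adjusted p = 0.0421). With the control differences as covariates it was -0.35 (beta-actin 3′ minus 5′), -1.15 (3′ minus middle) and -0.29 (Gapdh), and the call was lost each time (adjusted p = 0.471, 0.236 and 0.375).

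Hspb1, the mouse Hsp25, which caps actin filaments and is phosphorylated by MAPKAPK2, was at 11.84, 12.37 and 11.97 in KO and at 12.41, 12.74, 12.83 and 12.33 in WT. KO replicate 2 lay just above the lowest WT array, so the groups overlapped by that array. The log2 change was -0.52 with a 95% interval of -0.88 to -0.15, 1.43-fold lower, and did not pass (limma adjusted p = 0.0597). Without KO replicate 2 it was -0.67 and passed (adjusted p = 0.0333), and with a trended robust variance the same change passed (0.0489). Its other probe set, 1425964_x_at, gave -0.49 with an interval of -0.85 to -0.14 (adjusted p = 0.0824 over all probe sets). The difference between these Hspb1 probe sets was 0.71 ± 0.02 in KO and 0.73 ± 0.02 in WT (SD, n = 3 and 4; exact two-sided permutation p = 0.314).

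Hspb6, the Hsp20 of smooth and cardiac muscle, had the most positive change of the family and the widest spread. KO arrays read 8.30, 9.15 and 8.52, and WT arrays 7.66, 8.68, 8.02 and 7.84. WT replicate 2 lay above KO replicates 1 and 3, and the other WT arrays lay below every KO array. The log2 change was 0.61 with a 95% interval of 0.0017 to 1.21, 1.52-fold, and did not pass (limma adjusted p = 0.143). Without WT replicate 2 it was 0.82 and passed (adjusted p = 0.0464), and without KO replicate 2 it was 0.36 (0.355).

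Levels of cardiac muscle genes, which mouse lung carries in the sleeves of its pulmonary veins, varied between lungs of both groups alike. Of 12 cardiac markers tested, none passed with limma and none had an unadjusted p under 0.05. Their mean log2 level was 9.26, 9.86 and 9.66 on the KO arrays and 9.47, 10.08, 9.71 and 9.07 on the WT arrays. In KO lungs Hspb6 followed the same order as these markers, lowest in replicate 1 and highest in replicate 2. In WT lungs replicate 2 was highest and replicate 3 next in both, and replicates 1 and 4 changed places. Hspb1 was likewise lowest in KO replicate 1 and highest in KO replicate 2, but among WT arrays it was highest in replicate 3 (12.83, with 12.74 in replicate 2). Part of this order was also seen outside cardiac markers. The mean level of 2 adipose markers was 7.37, 8.43 and 8.23 on the KO arrays, the same order. On the WT arrays it was 8.145, 9.21, 7.935 and 7.735, again highest in replicate 2 but next in replicate 1. With the cardiac marker level as covariate, an alternative chosen after these values were seen, the log2 change of Hspb6 was 0.60 and passed (limma adjusted p = 0.0457), that of Hspb1 was -0.52 and passed (0.0184), and those of Bag3 and Hspb8 stayed called at -0.65 and -0.70 (0.0079 and 0.0146).

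**Figure D2:**
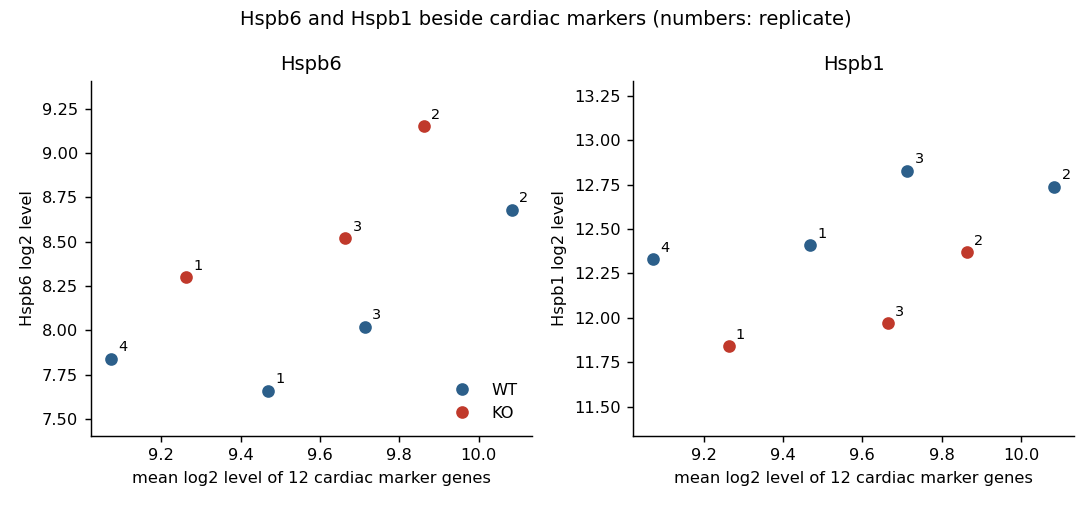
Log2 level of Hspb6 (left) and Hspb1 (right) against the mean log2 level of 12 cardiac marker genes, 1 point per lung, labelled by replicate, KO in red and WT in blue. At similar marker levels the KO points lie higher for Hspb6 (KO replicate 3 at 8.52, WT replicate 3 at 8.02) and lower for Hspb1 (11.97 against 12.83).

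Most smooth muscle markers had negative changes. Of 10 tested, 5 fell, 0 rose and 5 did not pass, with a median log2 change of -0.34. The mean log2 level was 8.305 to 8.441 in KO and 8.594 to 8.781 in WT. Over all tested genes 10% passed as lower and 5.56% as higher, and no marker list was tested against that. Without KO replicate 1 or WT replicate 2, 3 or 4 the count of lower smooth muscle markers was 3, and without WT replicate 1 it was 2. Myl9, a myosin light chain, and Tagln, an actin-binding protein, were 1.56-fold and 1.49-fold lower in KO (limma adjusted p = 0.00526 and 0.00846). Acta2, smooth muscle actin and the brightest of the list, was at 12.77 ± 0.09 in KO and 12.61 ± 0.13 in WT (SD, n = 3 and 4, limma adjusted p = 0.202). That was a positive difference like that of Hspb6, and no other gene of the list had one at its brightest probe set. Myh11, the smooth muscle myosin heavy chain, had a log2 change of -0.17 (adjusted p = 0.249), while its dimmer probe set rose by 0.26 (0.0343 over all probe sets); it was named after its values were seen. Of 8 endothelial markers 3 fell and 5 did not pass, while 5 fell without WT replicate 2. Of 6 mesothelial markers 3 fell and 3 did not pass, with 0 without KO replicate 2 or WT replicate 4 and 1 without KO replicate 3 or WT replicate 3. Of 10 skeletal muscle markers 3 were above the level filter and of 3 adipose markers on the array 2 were, and none of these passed with limma, although 1 of the skeletal ones had an unadjusted p under 0.05. The part of these cell types in the changes of Bag3, Hspb8 and Hspb1 was not tested.

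Cryab, alpha-B-crystallin, gave opposite signs at its probe sets. At 1434369_a_at the levels were 12.47, 12.53 and 12.57 in KO and 12.39, 12.32, 12.48 and 12.25 in WT, so that KO replicates 2 and 3 lay above every WT array and KO replicate 1 just within their range. At 1416455_a_at they were 9.32, 9.48 and 9.03 in KO and 9.41, 9.51, 9.68 and 9.72 in WT, with KO replicate 2 within the WT range and the others below it. The log2 changes were 0.16 with a 95% interval of 0.0036 to 0.32 (limma adjusted p = 0.137) and -0.30 with an interval of -0.57 to -0.04 (adjusted p = 0.132 over all probe sets). The third, 1435837_at, was under the level filter at 0.08 (adjusted p = 0.347). Hspb2, a small heat-shock protein of muscle, lies within the span of Cryab in the RefSeq annotation, and differed by 0.04 with an interval of -0.10 to 0.18 (adjusted p = 0.685). Both groups of Hspb2 lay between 6.92 and 7.06.

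**Figure D3:**
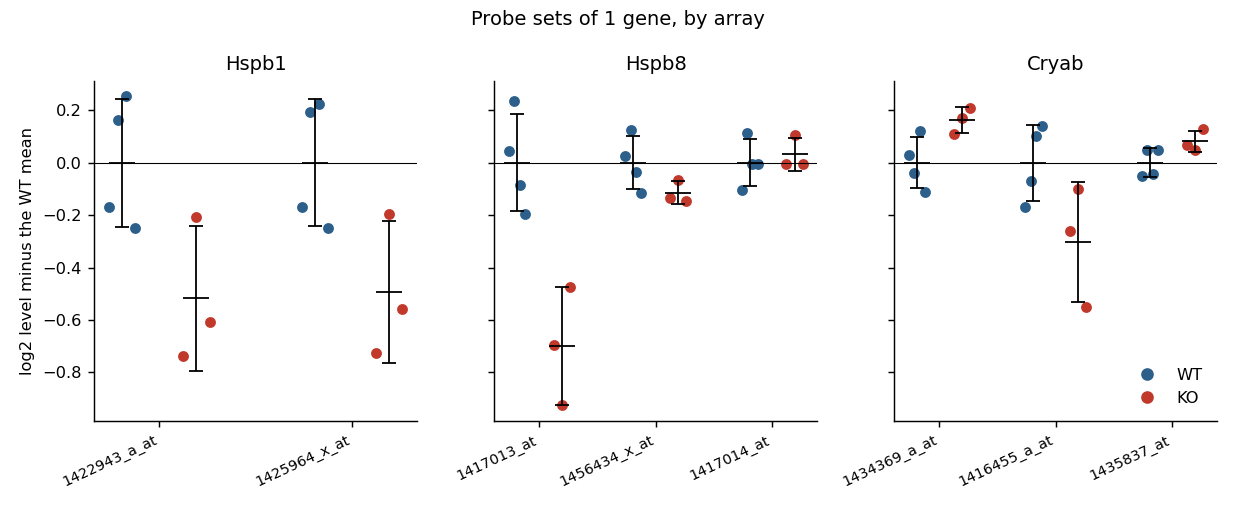
Log2 level minus the WT mean for each probe set of Hspb1, Hspb8 and Cryab, by array, with mean and SD; blue is WT (n = 4) and red is KO (n = 3). The 2 probe sets of Hspb1 move together, while only 1417013_at of the 3 for Hspb8 is clearly lower, and those of Cryab go in opposite directions.

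Probe sets of 1 gene were therefore set against each other array by array, a comparison chosen after their values were seen. For Hspb8, 1417013_at exceeded 1456434_x_at by 0.55, 0.25 and 0.78 in KO and by 1.13, 1.22, 1.06 and 1.03 in WT, a smaller gap on every KO array. For Cryab, 1434369_a_at exceeded 1416455_a_at by 3.15, 3.05 and 3.54 in KO and by 2.98, 2.81, 2.80 and 2.53 in WT, a larger gap on every KO array. These differed by -0.58 (exact two-sided permutation p = 0.0286) and 0.47 (exact permutation p = 0.0571) between the groups. Over all 8 pairs within Hspb1, Hspb8, Cryab and Hsf2 the groups did not overlap for 5, and no pair passed after Benjamini-Hochberg adjustment, the smallest adjusted exact permutation p being 0.0762. The pairs within Hspb8 and within Cryab share probe sets. The share of such pairs with groups apart over the whole array was not computed, so the 5 are not a result about these genes. The beta-actin 3′ control was also further above its 5′ and middle controls on the same KO arrays, and that of Gapdh above its middle but not its 5′ control, and the part of this in the probe set differences was not tested. The place of these probe sets on their transcripts was not examined.

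Hsf2, a heat-shock factor with roles in development, was dim. Its probe set 1444436_at ranged from 5.38 to 5.55 in KO and from 5.21 to 5.52 in WT, and 1449306_at from 4.03 to 4.11 and from 4.0 to 4.12. The log2 changes were 0.02 with a 95% interval of -0.18 to 0.22, a sign that each scaling alternative turned (-0.04 with quantile normalization, -0.01 with median centring, -0.05 with cyclic loess), and -0.0033 with an interval of -0.13 to 0.12 (limma adjusted p = 0.883 and 0.973 over all probe sets). Over all 15 probe sets of the family 2 passed as lower and 0 as higher with limma, against 6.37% and 3.53% of all 45037 probe sets (9.89% in either direction), and the groups did not overlap at 2 of 15, against 23.4%. At gene level 4 had an unadjusted p under 0.05 as lower and 2 as higher among the 8 tested genes, against 20.4% and 14.4% of all tested genes.

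**Figure D4:**
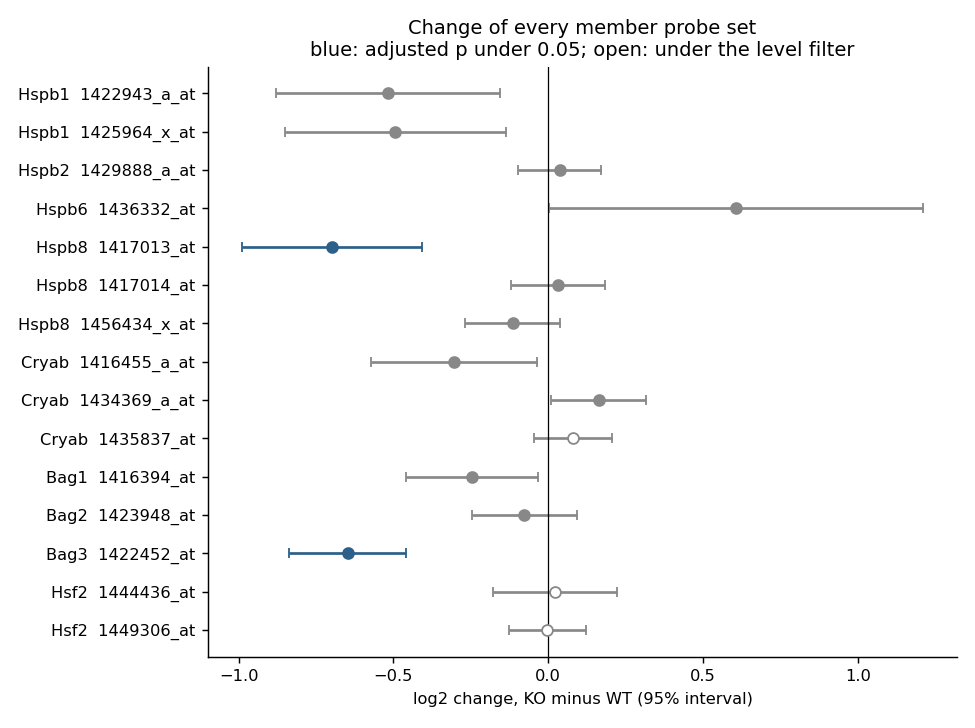
Log2 change, KO minus WT, with its 95% interval for all 15 probe sets. Blue marks those with a limma adjusted p under 0.05 over all probe sets (Hspb8 1417013_at and Bag3), grey the others, and open circles those under the level filter.

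The rest of the pathway was read from lists drawn up with earlier results of these data known. Of 7 further tested genes of the same families none passed with limma, and 1 had an unadjusted p under 0.05. That was Hsbp1, which binds and restrains heat-shock factor 1, at -0.23 (adjusted p = 0.106, groups apart). Its other probe set was at -0.45 (adjusted p = 0.0101 over all probe sets). Bag4, which binds death-domain receptors, did not pass at its brightest probe set (-0.10, adjusted p = 0.329), while another was lower at -0.32 (0.0192 over all probe sets), and it was named after its values were seen.

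Chaperone genes known as targets of heat-shock factor 1 were mostly lower. Of 19 tested, 16 fell, 0 rose and 3 did not pass, against 10% lower and 5.56% higher of all tested genes. The median log2 change was -0.63, and at least 13 of the 19 were lower whichever array was left out. The 4 with the smallest p were Stip1, which links Hsp70 to Hsp90, Chordc1 and Ahsa1, both co-chaperones of Hsp90, and Hsph1, a large Hsp70 relative that exchanges its nucleotide as Bag3 does. Stip1 went from 7.34 ± 0.11 to 5.83 ± 0.30 (SD, n = 4 and 3; limma adjusted p = 0.00486) and Chordc1 from 10.73 ± 0.17 to 9.77 ± 0.14 (0.00526). Ahsa1 had a log2 change of -0.54 and Hsph1 one of -1.35. The other probe set of Ahsa1 was at -0.105 and did not pass (limma adjusted p = 0.614 over all probe sets), while that of Hsph1 passed at -2.02 (0.00179). Hspa1a and Hspa1b, named after their values were seen, had the most negative changes of the list, -1.63 and -1.755 (limma adjusted p = 0.0278 and 0.0138). Their WT arrays spread widely, from 8.69 to 10.7 and from 11 to 12.75, each highest in WT replicate 3. The changes of Bag3 and Hspb8, -0.65 and -0.70, lay near the median of this list, but these are the members that passed. The 8 tested members had a median of -0.16, with Hspb1 at -0.52 and Cryab at 0.16 at its brightest probe set. Hspa8, the constitutive Hsp70 that BAG proteins bind, fell 1.30-fold, from 13.58 ± 0.09 to 13.20 ± 0.08 (limma adjusted p = 0.0137), and its 3 other probe sets had more negative changes, of which -1.24 and -1.52 passed (adjusted p = 0.00195 and 0.00179 over all probe sets) and -0.94 did not (0.107). With the beta-actin differences as covariates 0 of the 19 were called by limma, with 17 (3′ minus 5′) and 14 (3′ minus middle) at an unadjusted p under 0.05, and with the Gapdh difference 2 were called, with 19.

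Of 10 regulators of heat-shock factor 1, 3 fell, 0 rose and 7 did not pass, with a median log2 change of -0.20. Of all tested genes 10% were lower and 5.56% higher, and these few genes were not tested against that. Hsbp1 is counted here as well as among the further family genes above, and Hdac6 here as well as among the partners of BAG3 below. Vcp, an ATPase that extracts ubiquitinated proteins, fell 1.79-fold (limma adjusted p = 0.00526) and Csnk2a1, a casein kinase 2 catalytic subunit, 1.34-fold (0.00927), each whichever array was left out. The other probe set of Vcp was at -0.01. Of 5 other probe sets of Csnk2a1, those at -0.82 and -0.89 passed (adjusted p = 0.0127 and 0.0199 over all probe sets), and those at -0.245, -0.03 and 0.16 did not. Fbxw7, the ubiquitin ligase subunit that marks heat-shock factor 1 for degradation, fell 1.27-fold (adjusted p = 0.0426) and lost the call without any one of KO replicates 1 and 3 and WT replicates 1, 3 and 4 (adjusted p up to 0.119). The other probe set of Fbxw7 was at -0.22 and did not pass (limma adjusted p = 0.309 over all probe sets).

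Of 8 kinases of small heat-shock proteins 2 fell, 1 rose and 5 did not pass, with a median log2 change of -0.08. The shares of all tested genes were 10% lower and 5.56% higher, and so few kinases were not tested against them. Mapkapk2, which phosphorylates HSPB1, was at 7.98, 6.95 and 7.61 in KO and between 8.24 and 8.69 in WT, 1.89-fold lower (limma adjusted p = 0.0305). It lost the call without KO replicate 3 or any 1 of the 4 WT arrays (adjusted p up to 0.0741), and its log2 change of -0.92 became -0.10, -1.17 and -0.02 when the beta-actin 3′ to 5′ gap, the beta-actin 3′ to middle gap or the Gapdh gap entered as covariate (adjusted p = 0.898, 0.354 and 0.97). Akt1, which can bind and phosphorylate HSPB1, had a log2 change of -0.44 (adjusted p = 0.0438), called without KO replicate 1 (0.039) but not without any other array (up to 0.097). Its other probe sets were at 0.07, 0.11 and 0.10, the last under the level filter. None of them passed (limma adjusted p = 0.66, 0.326 and 0.338 over all probe sets). Prkaca, the protein kinase A subunit that phosphorylates HSPB6, rose by 0.27 (adjusted p = 0.0423), called without KO replicate 2 (0.0313) but not without any other array (up to 0.101), and its other probe set was at -0.41 with the groups apart (adjusted p = 0.0763 over all probe sets).

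Of 14 partners of BAG3 in chaperone-assisted autophagy 4 fell, 0 rose and 10 did not pass, with a median log2 change of -0.11. Beside this, 10% of all tested genes were lower and 5.56% higher, and the list was not tested against that. Flna, the actin cross-linker filamin A and a client of this route, fell 1.40-fold (limma adjusted p = 0.0106), and Ywhag, a 14-3-3 protein that binds BAG3, fell 1.38-fold (0.015), each whichever array was left out. Hspa8 was the third. Sqstm1, the autophagy receptor p62, had a log2 change of -0.50 (0.0418) and was called without KO replicate 1 (0.0258) but not without any other array (up to 0.125).

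**Figure D5:**
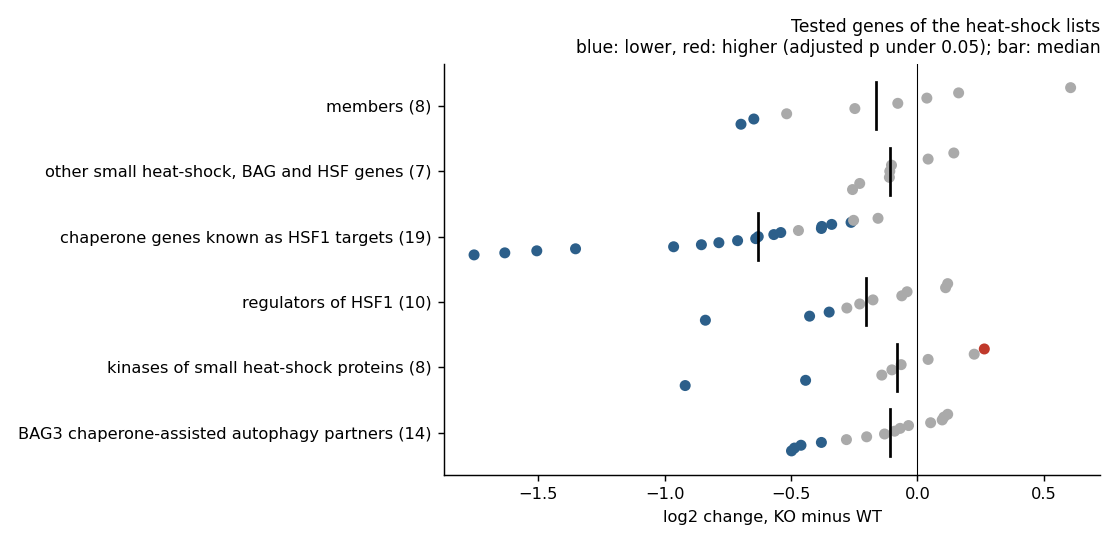
Log2 change, KO minus WT, of each tested gene in the family and in 5 related lists, with the number of genes in brackets and the median as a bar; blue is lower and red higher at a limma adjusted p under 0.05. The HSF1 target list lies furthest to the left, with a median of -0.63 and 16 of 19 genes lower, while the 8 members have a median of -0.16.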

How the data were processed

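The authors deposited log2 levels of 45101 probe sets for 7 arrays, normalized between arrays. Per the submitters' processing notes the tools were Affymetrix Expression Console, RMA and MAS5, without versions or roles. The log base was taken from the range of the values. Groups came from the labels. Probe sets were named from the platform annotation (34945 with 1 gene, 932 with several and 9160 with none, of 45037 that are not controls) and symbols updated by gene identifier through RefSeq GRCm38.p6.

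For each of 18193 genes the probe set of highest mean was kept, and 13285 at or above the 40th percentile of probe set means were fitted with lmFit and eBayes (limma 3.58.1, R 4.3.3), genotype as the only term, with Benjamini-Hochberg adjustment over all of them. A second fit took all 45037 probe sets. The fit was tested on simulated data with independent noise for each gene, which says nothing about differences shared by whole arrays. Intervals are at 95%, and for arrays their number limits the precision. Members and lists were chosen with earlier results of these data known. Named genes were all members and, of each related list, up to 4 that passed with the smallest p, or the 1 with the smallest p where none passed; of marker lists, up to 4 that passed and the 2 brightest, of which Myl9, Tagln and Acta2 are given. Besides these settings 22 others were tried, and 1 more was chosen after seeing the data. Plots used matplotlib 3.10.9 (Python 3.11.15).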

Additional observations from a re-analysis of the deposited data

Results flagged for a closer look

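In 37 sets of 4 WT values screened (the family's probe sets, the control differences and the named genes), 4 had 1 array far from the rest, and chance marks about 1 set in 20. Hspb2 was at 7.04 in WT replicate 3 against 6.93 to 6.94 in the others. Hsf2 at 1444436_at was at 5.21 in WT replicate 2 against 5.47 to 5.52. Hsbp1 was at 10.18 in WT replicate 4, the array with high Xist, against 9.90 to 9.92. Hspa8 was at 13.72 in WT replicate 3 against 13.52 to 13.55. The groups of 3 KO arrays were not screened.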

How the results depend on the processing

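Of the 8 tested genes of the family, none that passed changed sign under any of the 22 other settings or the 1 chosen after the data were seen. Without each array in turn the limma calls were 2 to 4 in the family, 891 to 1951 over all genes (of 2069; 1104, 1017, 1104 and 891 on leaving out KO replicate 3 and WT replicates 1, 3 and 4) and 13 to 15 in the HSF1 target list; 4 in the family came without KO replicate 2. Limma calls over all genes, in the family and in the HSF1 target list were 0, 0 and 0 with beta-actin 3′ minus 5′ as covariate (unadjusted p under 0.05 in 2204, 3 and 17), 0, 0 and 0 with beta-actin 3′ minus middle (1742, 2 and 14), 5, 0 and 2 with the Gapdh difference (2726, 3 and 19), and 0, 0 and 0 in the 5 mice with the lowest mouse numbers (2791, 3 and 17), where fewer samples enter. The control differences used as covariates set all KO arrays apart from all WT arrays, so those fits cannot tell them well from genotype. The mice with the lowest numbers were all KO mice and WT replicates 1 and 2, so mouse number goes partly with genotype. With Xist as covariate 935 genes were called. The cardiac covariate, added after the data were seen, gave 4 in the family. With the replicate number as a block 371 genes were called, Hspb8 was lost (limma adjusted p = 0.0525) and Hspb6 gained (0.0459). The labels do not say whether same-numbered mice are pairs. Deviations of same-numbered arrays correlated at 0.003, -0.042 and 0.035, and so few arrays cannot settle it. Of called genes higher in KO the share was 35.7%, and 57.1%, 24.6% and 46.8% after quantile normalization, median centring and cyclic loess. Where a cause is not shown above, it was not tested.

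Signs turned for the following changes, which include the called Akt1 and Prkaca. Hspb2 was at -0.08 with beta-actin 3′ minus 5′ (-0.0775) and Gapdh (-0.0809) as covariates, Cryab at -0.0197 with the mean of its probe sets and at 0.18 (as reported, -0.30) for 1416455_a_at with beta-actin 3′ minus middle, and Bag2 at 0.017 with the latter. Hspb8 1417014_at was at -0.0135, -0.0323 and -0.0514 with quantile normalization, cyclic loess and the Gapdh covariate, and between -0.005 and 0.07 without single arrays. Hsf2 1444436_at was at -0.0414, -0.01 and -0.0541 under the scalings and -0.0406 and -0.0032 with beta-actin 3′ minus 5′ and Gapdh, 1449306_at at 0.0272 with Gapdh, and without single arrays they were between -0.05 and 0.055 and between -0.03 and 0.0167, and their difference between -0.04 and 0.085. Among other genes, Akt1 (as reported, -0.44) was at 0.0275 with Gapdh, Acta2 at -0.0242 with beta-actin 3′ minus 5′, and Prkaca (as reported, 0.27) at -0.0725 with the mean of its probe sets and -0.41 with _at and _a_at probe sets alone. Hsf2 and 1 Cryab probe set lie under the level filter, where small changes cannot be told from none.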
